A study of Mus musculus with 20 samples.

Results

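Pericyte and smooth muscle genes of the heart were followed in mice with cardiac light chain amyloidosis. They are the 10 genes Pdgfrb, Rgs5, Kcnj8, Abcc9, Cspg4, Notch3, Myh11, Acta2, Tagln and Cnn1, chosen by symbol as usual markers of the cells that wrap blood vessels. All 10 were present among the 25308 genes of the count table, and all 10 were among the 14477 genes that passed the filter on low counts. The first 6 mark pericytes and the last 4 are contractile genes of smooth muscle.

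RNA was sequenced from the apex of the heart of 20 adult mice of both sexes. The 9 AL mice were λS-DH animals, homozygous for the gene of a human amyloidogenic light chain (λS), which replaces part of the mouse kappa light chain locus, and carried amyloid deposits after an injection of the recombinant variable domain of that light chain, as fibrils or in soluble form. The 4 LS mice had the same genotype, were not induced and had no deposits. The 7 Ctrl mice were DH-LMP2A animals (DH), age-matched to the AL mice, without the human gene. All 3 groups carry DH-LMP2A, which lets plasma cells arise in mice that lack Ig heavy chains, so that no group is wild-type. The form of the injected domain, the age and the amyloid score of each mouse were not used here.

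Pericytes sit on capillaries and share a basement membrane with the endothelium, whereas smooth muscle cells form the contractile layer of arterioles and arteries. Endothelial PDGF-B recruits both through its receptor Pdgfrb, and Notch ligands on the endothelium keep them in a mature state through Notch3. Both set vessel tone, through ATP-sensitive potassium channels that relax the cell and through actin and myosin filaments that contract it. Vessel walls are a known site of amyloid deposition.

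Total counts were 43993277 to 62668146 in the 15 mice of the first sequencing run (AL1 to AL7, LS1 to LS4, Ctrl1 to Ctrl4) and 7867642 to 11794615 in the 5 mice of the second run (AL8, AL9, Ctrl5 to Ctrl7). Values are given as CPM, counts scaled to a common library total after TMM normalization. All 10 cardiomyocyte genes listed were present in every group. Liver genes were present in several control hearts, with Alb at 93.4 to 215 CPM in Ctrl1, Ctrl3, Ctrl4, LS1 and LS3 and at most 21.7 CPM elsewhere, and 10 of 10 liver genes were called lower in AL than in Ctrl mice. Xist was at 185 to 400 CPM in 8 mice (Ctrl1 to Ctrl3, LS2, LS3 and AL2 to AL4) and at most 6.35 CPM in the other 12 mice, which include all 5 of the second run.

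In AL hearts Abcc9 was lower than in both control groups, Acta2 was higher than in Ctrl hearts, and none of the other 8 genes passed the test in any comparison. Calls required an absolute log2FC of at least 0.58 and an FDR under 0.05 over all tested genes (edgeR quasi-likelihood test with the run as a term, Benjamini-Hochberg adjustment). By this rule 2 of the 10 genes were called between AL and Ctrl mice, where 7.81% of all tested genes were called. Between AL and LS mice 1 of 10 was called, against 8.9% of all tested genes. Between LS and Ctrl mice edgeR called 0 of 10, against 0.0207% of all tested genes. DESeq2 also called 0 of 10, against 19 of 14477 genes. An unadjusted p under 0.05 was found by edgeR for 0 of 10, against 860 of 14477 genes. The share of called genes was thus near that of all genes between AL and LS mice and above it, with 2 genes, between AL and Ctrl mice. An unadjusted p under 0.05 (edgeR) was found for 3 of 10 between AL and Ctrl mice, against 5624 of 14477 genes. Between AL and LS mice it was found for 1 of 10, against 5334 of 14477. At that p the share of the 10 genes was thus not above that of all genes in any comparison. The median log2FC of the 10 genes was 0.17 in AL against Ctrl mice and 0.07 in AL against LS mice, and that of all tested genes was 0.01 in both. The comparisons of AL with Ctrl and with LS mice share the AL samples.

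**Figure D1:**
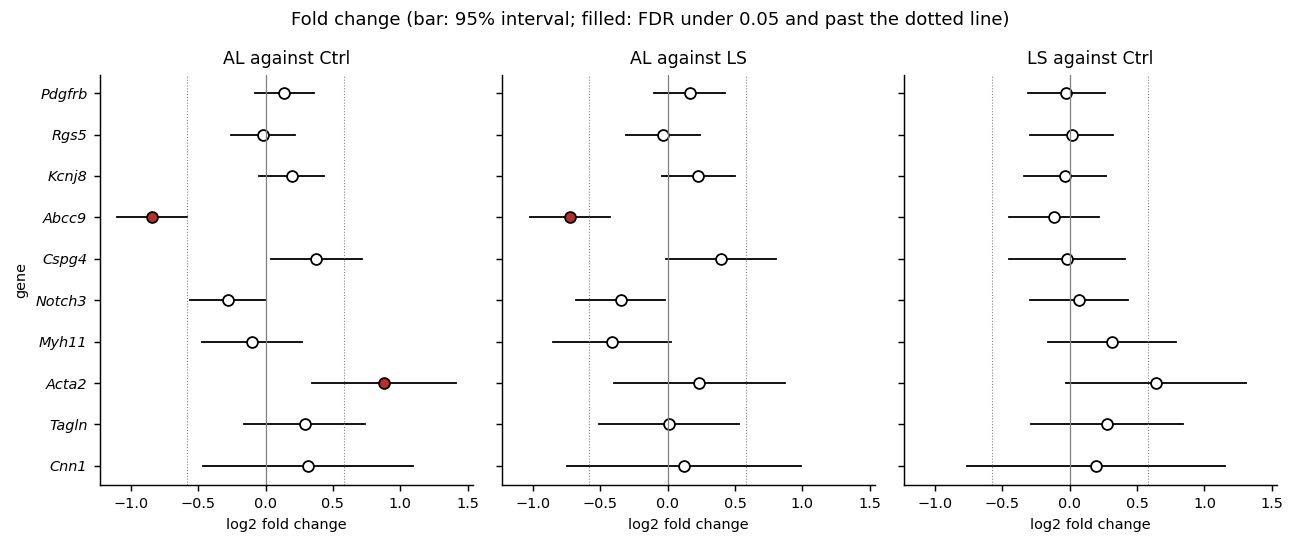
The log2 fold change of each gene (horizontal axis) with its 95% interval is shown for the 3 comparisons, with filled points for called genes and dotted lines at a log2FC of 0.58 in either direction. Abcc9 is filled on the left in both comparisons of AL mice, Acta2 is filled on the right against Ctrl mice only, and no point is filled for LS against Ctrl mice.

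Abcc9 and Kcnj8 encode the channel that couples vessel tone to metabolism. Kcnj8 is the pore-forming subunit of ATP-sensitive potassium channels of mural cells, and Abcc9 is the regulatory sulfonylurea receptor that opens them when ATP is low. Abcc9 also serves cardiomyocytes, in a splice form that pairs with the pore subunit Kcnj11, and counts per gene do not separate the forms. Kcnj8 (ENSMUSG00000030247) spans 142564837 to 142571614 and Abcc9 (ENSMUSG00000030249) 142587862 to 142702315 on the minus strand of chromosome 6 (GRCm38, GENCODE M21). Only 16.2 kb separate the neighbouring genes. Their promoter windows (RefSeq, GRCm38.p6, minus strand, 250 bases before and 50 after the start, at chr6:142702225-142702524 for Abcc9 and chr6:142571565-142571864 for Kcnj8) are shown 5′ to 3′ because one gene was called lower in AL hearts and the other was not. The Abcc9 window is 65.7% and the Kcnj8 window 53.3% G and C.
Abcc9: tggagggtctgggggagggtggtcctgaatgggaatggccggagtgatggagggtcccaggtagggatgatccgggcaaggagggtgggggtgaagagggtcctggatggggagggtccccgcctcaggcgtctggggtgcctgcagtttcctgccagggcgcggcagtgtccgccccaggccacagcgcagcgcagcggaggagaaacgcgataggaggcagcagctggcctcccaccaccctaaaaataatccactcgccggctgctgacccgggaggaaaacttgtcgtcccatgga
Kcnj8: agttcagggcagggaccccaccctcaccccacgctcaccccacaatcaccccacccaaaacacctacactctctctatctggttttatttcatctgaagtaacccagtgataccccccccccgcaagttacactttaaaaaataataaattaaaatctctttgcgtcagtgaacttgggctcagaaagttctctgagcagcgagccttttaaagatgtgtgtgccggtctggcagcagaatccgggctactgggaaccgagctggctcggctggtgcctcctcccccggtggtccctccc

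The lowest, median and highest Abcc9 levels in AL mice were 184, 286 and 384 CPM. LS1 to LS4 had 466, 522, 480 and 440 CPM, and the lowest, median and highest Ctrl levels were 438, 481 and 561 CPM. Every AL mouse was thus below every LS and Ctrl mouse, with AL9 and AL1 lowest and AL2 and AL3 nearest to the controls. Such separation of AL from all 11 other mice was found for 1.47% of tested genes, and among the 10 genes for Abcc9 alone. Within the first run AL mice were apart from LS and Ctrl mice in 9.42% of tested genes, again with Abcc9 alone of the 10. Abcc9 was 1.79-fold lower in AL than in Ctrl mice (log2FC -0.84, SE 0.13, FDR = 0.000338, edgeR) and 1.65-fold lower than in LS mice (log2FC -0.73, SE 0.15, FDR = 0.00265). The difference between LS and Ctrl mice was -0.12 (SE 0.17, 95% interval -0.45 to 0.22, FDR = 0.963).

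Both sequencing runs had lower Abcc9 in AL than in Ctrl mice, at a log2FC of -0.72 in the first run (FDR = 0.00487, edgeR) and -1.04 in the second (2 AL and 3 Ctrl mice, FDR = 0.207). Among the 12 mice with low Xist the log2FC was -1.09 (FDR = 0.00761, edgeR) and among the 8 with high Xist -0.41 (FDR = 0.102). The value with high Xist minus that with low Xist was 0.68 (SE 0.24, FDR = 0.626 over all genes, edgeR interaction test), which did not pass the correction. Without the 5 mice with high Alb the log2FC was -0.92 against Ctrl (FDR = 0.0233, edgeR) and -0.71 against LS mice (FDR = 0.0647), the latter no longer called.

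The summed level of cardiomyocyte genes was also lower in the AL mice of the first run. The summed level of 10 of them was 63110 to 74424 CPM in the 7 AL mice of that run, below the 77889 to 86392 CPM of LS and the 74642 to 82740 CPM of its Ctrl mice. In the second run AL8 and AL9 had 94544 and 73105 CPM and Ctrl mice 87182 to 94519 CPM. None of the 10 was called, but Myh6, the main myosin heavy chain of the adult mouse heart (log2FC -0.33, FDR = 0.0225, edgeR), and Pln, which inhibits calcium uptake (-0.44, FDR = 0.0135), passed the FDR in AL against Ctrl mice. Myh6 made up the largest part of the sum, with a mean of 32317 CPM in Ctrl and 23364 CPM in AL mice over both runs. The median log2FC of the 10 genes was -0.053 in AL against Ctrl mice, with Actc1 (0.04) and Mb (0.08) above 0 and the others below. The part of cardiomyocytes in the Abcc9 difference was not tested.

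Kcnj8 did not follow its partner. The lowest, median and highest levels were 14.6, 28.1 and 35.3 CPM in AL mice and 20.9, 23.0 and 24.8 CPM in Ctrl mice, and LS1 to LS4 had 25.5, 19.4, 24.1 and 27.7 CPM. The AL range spanned the whole Ctrl range, since AL8 lay below and 7 of 9 AL mice above every Ctrl mouse. With a log2FC of 0.19 (SE 0.12, 95% interval -0.05 to 0.43, FDR = 0.253, edgeR) it was not called against Ctrl, nor at 0.23 against LS mice (SE 0.14, FDR = 0.242).

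Within the first run Kcnj8 was 25.1 to 35.3 CPM in the 7 AL mice and 20.9 to 24.8 CPM in the 4 Ctrl mice. The groups did not overlap there, as for 14.3% of all tested genes, and the log2FC was 0.39 (SE 0.11, FDR = 0.018, edgeR), under the fold threshold. In the second run it was -0.23 (FDR = 0.665), with AL8 and AL9 at 14.6 and 22.9 CPM and Ctrl5 to Ctrl7 at 23.1, 21.1 and 24.4 CPM. The runs differed in this log2FC by -0.67 (SE 0.21, FDR = 0.146 over all genes, edgeR interaction test), which did not pass the correction. Without AL8 the difference was -0.39, with AL9 as the only AL mouse of the second run.

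The other subunits of these channels were also measured. Kcnj11, the pore subunit of cardiomyocytes, had a log2FC of -0.18 (FDR = 0.244, edgeR) in AL against Ctrl mice and -0.31 (FDR = 0.0989) against LS mice. Abcc8, the other sulfonylurea receptor, had -0.32 (FDR = 0.12, edgeR) and -0.47 (FDR = 0.0565). Neither was called.

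Rgs5 encodes a GTPase-activating protein that dampens signals of Gq and Gi coupled receptors and is one of the most abundant pericyte transcripts. It lies on chromosome 1 (ENSMUSG00000026678, 169655501 to 169695813, plus strand, GRCm38). Its lowest, median and highest levels were 289, 715 and 905 CPM in AL mice and 339, 627 and 718 CPM in Ctrl mice, and LS1 to LS4 had 731, 701, 729 and 874 CPM. The groups overlapped widely, and the 5 lowest mice were those of the second run. The log2FC was -0.02 (SE 0.12, 95% interval -0.26 to 0.22, FDR = 0.925, edgeR) against Ctrl and -0.03 (SE 0.14, FDR = 0.886) against LS mice.

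The direction of Rgs5 in AL against Ctrl mice was not the same in both runs, at 0.19 (SE 0.10, FDR = 0.161, edgeR) in the first and -0.42 (SE 0.24, FDR = 0.447) in the second. The difference between the runs was -0.67 (SE 0.22, FDR = 0.16 over all genes, edgeR interaction test). Of 13835 genes in this test 97 passed an FDR of 0.05, and 0 of the 10 genes did. Of the 10, 2 had an unadjusted p under 0.05 (Rgs5 and Kcnj8), and the share of all genes at that p was not counted. Of 6 relatives of Rgs5 tested, Rgs1 was called higher in AL than in Ctrl mice (log2FC 1.49, FDR = 0.0326, edgeR) and than in LS mice (1.84, FDR = 0.0372). Against LS mice Rgs18 was also called higher (1.04, FDR = 0.0345, edgeR) and Rgs2, which is strong in smooth muscle, lower (-0.69, FDR = 0.00623). Rgs1 and Rgs18 are expressed mainly in blood cells, and Rgs1 averaged only 0.762 CPM in AL mice.

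**Figure D2:**
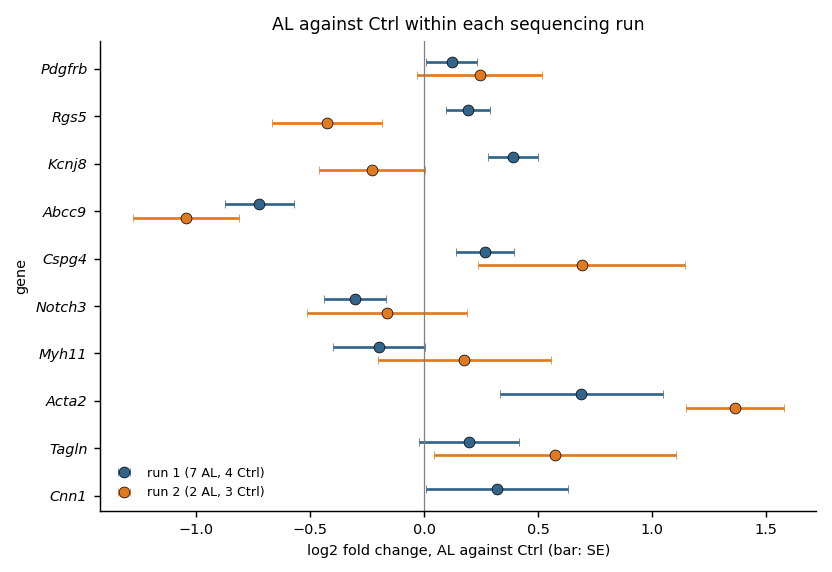
The log2 fold change of AL against Ctrl mice is drawn for each gene within the first run (blue, 7 AL and 4 Ctrl mice) and within the second run (orange, 2 AL and 3 Ctrl mice), with bars of 1 SE. Abcc9 is below 0 and Acta2 above 0 in both runs, while Rgs5, Kcnj8 and Myh11 change sides, and Cnn1 has no second-run value because it failed the filter on low counts there.

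Acta2, Myh11, Tagln and Cnn1 encode the contractile apparatus of smooth muscle. Acta2 is smooth muscle actin, Myh11 the smooth muscle myosin heavy chain, Tagln the actin-bundling protein transgelin, and Cnn1 calponin, which binds actin and inhibits myosin. All are targets of serum response factor (SRF), which binds the CArG box with its partner myocardin. Acta2 is also switched on in activated fibroblasts, so that it is not particular to the vessel wall.

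The Acta2 promoter is shown because this gene was the only contractile one called. Acta2 (ENSMUSG00000035783) lies on the minus strand of chromosome 19 (34241090 to 34255590, GRCm38), and the window of 300 bases is chr19:34255324-34255623 (RefSeq, GRCm38.p6, 5′ to 3′). Capitals mark CArG-like boxes, which are CC, then 6 bases of which at most 1 is not A or T, then GG, a pattern that reads the same on both strands. They begin at bases 167 and 217 of the window.
Acta2: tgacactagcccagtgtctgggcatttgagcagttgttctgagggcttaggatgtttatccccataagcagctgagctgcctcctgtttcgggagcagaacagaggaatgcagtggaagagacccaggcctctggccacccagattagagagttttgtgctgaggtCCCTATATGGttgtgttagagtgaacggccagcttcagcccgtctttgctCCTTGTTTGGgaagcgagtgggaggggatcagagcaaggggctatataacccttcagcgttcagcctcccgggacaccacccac

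Of 32851 mouse promoter windows of this length 9.98% held such a box and 0.822% held at least 2. Windows of 7 of the 10 genes were searched, without Pdgfrb, Myh11 and Tagln, so that Cnn1 was the only other contractile gene among them. Of these 7, Acta2 alone held a box of this kind. A box with no mismatch was found in 0 of the 7 windows and in 1.63% of all windows. A match describes letters of the sequence and does not show binding.

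Acta2 levels were 49.4, 70.7 and 152 CPM in AL mice (lowest, median, highest) and 21.1, 28.3 and 77.7 CPM in Ctrl mice, and LS1 to LS4 had 119, 57.6, 96.8 and 62.3 CPM. The AL mice were 1.84-fold above Ctrl mice (log2FC 0.88, SE 0.27, FDR = 0.0236, edgeR), and AL3 and AL1 were highest. AL and LS mice covered much the same range, with a log2FC of 0.24 (SE 0.32, 95% interval -0.40 to 0.87, FDR = 0.633). LS against Ctrl mice gave 0.64 (SE 0.34, 95% interval -0.02 to 1.31, FDR = 0.855).

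Ctrl mice fell apart in Acta2. Ctrl1, Ctrl2 and Ctrl3 had 77.7, 61.3 and 73.5 CPM, within the range of AL mice, whereas Ctrl4 to Ctrl7 had 21.1, 28.3, 22.9 and 21.8 CPM, below every AL and LS mouse. The first 3 are the Ctrl mice with high Xist, and Ctrl5 to Ctrl7 are those of the second run. Among mice with low Xist the log2FC of AL against Ctrl mice was 1.67 (FDR = 0.0172, edgeR), and among mice with high Xist 0.41 (FDR = 0.5). High minus low Xist, the difference was -1.24 (SE 0.48, FDR = 0.626 over all genes, edgeR interaction test) and did not pass the correction. With low Xist, Ctrl4 was the only Ctrl mouse of the first run, and AL against LS mice had a log2FC of -0.021.

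The Acta2 call was not held in every subset of mice. It was lost in the first run alone (log2FC 0.69, FDR = 0.166, edgeR), without AL9 (0.77, FDR = 0.0543) and without the 5 mice with high Alb (1.01, FDR = 0.0512), with the direction kept. In the second run the log2FC was 1.36 (FDR = 0.124).

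Some genes of other cell types were also called in this comparison. Of 9 genes of activated fibroblasts tested, 3 were called higher in AL than in Ctrl mice, Cilp (log2FC 1.48, FDR = 0.0448, edgeR), Ltbp2 (1.71, FDR = 0.019) and Comp (1.54, FDR = 0.0121), all matrix proteins. The other 6 were not called. Against LS mice Cilp (FDR = 0.19, edgeR) and Ltbp2 (FDR = 0.0976) were not called, and Comp was (FDR = 0.0191). The highest AL mouse had 95.9 CPM of Cilp and 48.5 CPM of Ltbp2, where the AL means were 21.1 and 8.98 CPM. The summed level of the 10 genes listed was 1096 CPM in AL9, 70.6 to 268 in the other AL mice, 132 to 158 in LS and 94.1 to 206 in Ctrl mice, so that the groups overlapped. Of 5 mesothelial genes 4 were called higher in AL than in Ctrl mice, with a median log2FC of 1.83, and the list summed to 16.8 to 241 CPM in AL, 7.13 to 22.3 in LS and 13.4 to 32.7 in Ctrl mice. Of 5 genes listed for atrial muscle 3 were tested and all 3 were called higher, Nppa (log2FC 2.72, FDR = 0.00153, edgeR), Myl7 (1.97, FDR = 0.00961) and Myl4 (0.98, FDR = 0.0165). Their list summed to 139 to 964 CPM in AL, 89.6 to 396 in LS and 5.28 to 138 in Ctrl mice, with every AL mouse above every Ctrl mouse and most of it from Nppa, which is also known from the loaded ventricle. None of the genes listed for these cell types was at 0 in every mouse, and the part of these cells in the Acta2 difference was not tested.

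The other contractile genes were not called. Tagln (ENSMUSG00000032085, chromosome 9, 45929619 to 45936058, minus strand) was 4.74, 13.6 and 26.7 CPM in AL mice (lowest, median, highest), 7.47, 10.03 and 15.3 CPM in Ctrl mice and 17.6, 13.0, 20.6 and 13.6 CPM in LS1 to LS4. AL8 had the lowest and AL1 the highest level of all 20 mice. The log2FC was 0.29 (SE 0.23, 95% interval -0.16 to 0.74, FDR = 0.367, edgeR) against Ctrl and 0.01 (SE 0.27, FDR = 0.982) against LS mice. As with Acta2, Ctrl1 to Ctrl3 (15.1, 15.2 and 15.3 CPM) were above Ctrl4 to Ctrl7 (10.03, 9.06, 7.47 and 9.38 CPM).

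Myh11 (ENSMUSG00000018830, chromosome 16, 14194535 to 14291372, minus strand) was 12.5, 17.1 and 38.1 CPM in AL mice and 15.6, 22.8 and 26.3 CPM in Ctrl mice, and LS1 to LS4 had 29.8, 22.3, 29.8 and 21.7 CPM. AL9 was the highest mouse, and 6 of 9 AL mice were below every LS mouse. The log2FC was -0.10 (SE 0.19, 95% interval -0.47 to 0.27, FDR = 0.731, edgeR) against Ctrl and -0.41 (SE 0.22, 95% interval -0.85 to 0.02, FDR = 0.184) against LS mice.

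Cnn1 (ENSMUSG00000001349, chromosome 9, 22099216 to 22109630, plus strand) was the least abundant of the 10 genes, at 0 to 2.01 CPM in AL, 0.0996 to 1.37 CPM in Ctrl and 1.32, 0.968, 2.00 and 0.732 CPM in LS1 to LS4. AL8 had 0 counts, which at its depth allows up to 0.356 CPM, a limit of 3 counts that covers counting error only. The log2FC was 0.32 (SE 0.40, 95% interval -0.46 to 1.095, FDR = 0.594, edgeR) against Ctrl and 0.12 (SE 0.44, FDR = 0.876) against LS mice, and the interval against Ctrl mice holds both 0 and a log2FC of 1.

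**Figure D3:**
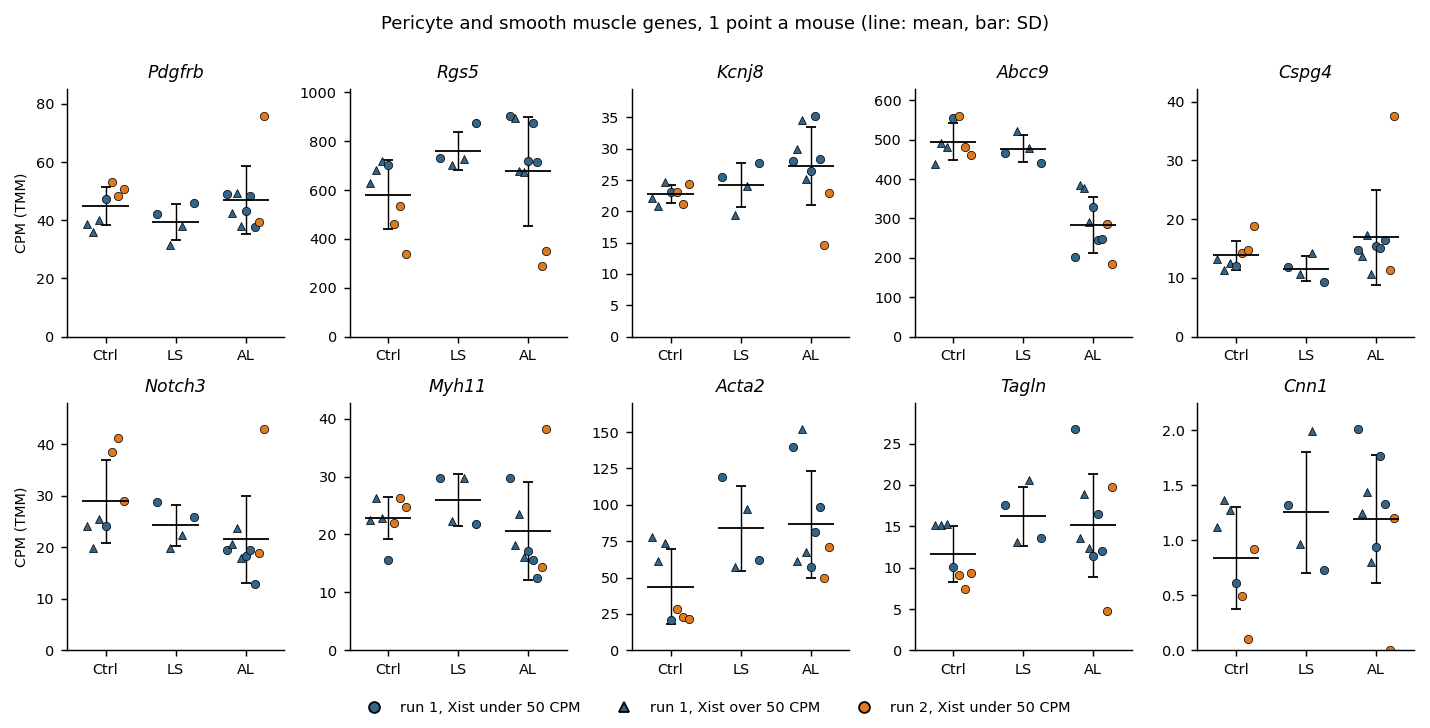
Each panel shows the CPM of 1 gene (vertical axis, from 0) in every Ctrl, LS and AL mouse, with blue points for the first and orange points for the second run, triangles for mice with Xist over 50 CPM, a line at the group mean and a bar of 1 SD. AL mice lie below all others for Abcc9, 4 Ctrl mice lie below all AL and LS mice for Acta2, and AL9 stands above the other AL mice for Pdgfrb, Cspg4 and Notch3.

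Of 14 further smooth muscle genes, 1 was called in AL against Ctrl mice and 2 against LS mice. Tpm2, a tropomyosin that lies along actin filaments, was higher in AL than in Ctrl mice (log2FC 1.01, SE 0.18, FDR = 0.000817, edgeR) and than in LS mice (0.82, FDR = 0.012). Its range was 11.3 to 39.5 CPM in AL, 7.51 to 11.2 CPM in LS and 8.65 to 11.2 CPM in Ctrl mice. AL mice were thus highest without overlap, by a narrow margin, and 1.47% of all tested genes were separated in this way. Myocd, the SRF partner myocardin that is also active in cardiomyocytes, was lower in AL than in LS mice (log2FC -0.85, FDR = 0.00294, edgeR), with -0.20 (FDR = 0.355) against Ctrl mice. The median log2FC of the 14 genes was 0.11 against Ctrl and -0.06 against LS mice.

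Of 8 genes of the SRF pathway, 0 were called in AL against Ctrl mice and Myocd alone was called against LS mice. Among 10 actin, calponin and myosin relatives 0 were called against Ctrl mice. Acta1, skeletal actin, which the stressed heart re-expresses, was called higher in AL than in LS mice (mean 426 against 153 CPM, FDR = 0.0412, edgeR). Ctrl mice had a mean of 300 CPM, between these, and AL against Ctrl mice gave a log2FC of 0.42 (FDR = 0.535, edgeR).

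The membrane receptors Pdgfrb and Notch3 and the proteoglycan Cspg4, a coreceptor for growth factors on young pericytes, were not called in any comparison. In bulk tissue, fewer cells of a type and less RNA in each cell cannot be told apart, and this holds for all 10 genes.

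Pdgfrb (ENSMUSG00000024620) was 37.8, 43.1 and 76.0 CPM in AL mice (lowest, median, highest), 42.3, 31.4, 38.2 and 46.1 CPM in LS1 to LS4, and 35.9, 47.3 and 53.2 CPM in Ctrl mice. The groups overlapped, and only AL9 was above the Ctrl range. The log2FC was 0.14 (SE 0.11, 95% interval -0.08 to 0.36, FDR = 0.381, edgeR) against Ctrl and 0.16 (SE 0.13, 95% interval -0.10 to 0.43, FDR = 0.397) against LS mice. Neither interval reaches the size of the change in Abcc9.

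Cspg4 (ENSMUSG00000032911, chromosome 9, 56865033 to 56899870, plus strand) was 10.6, 15.1 and 37.6 CPM in AL mice, 11.9, 10.7, 14.3 and 9.25 CPM in LS1 to LS4, and 11.4, 13.2 and 18.8 CPM in Ctrl mice. AL9 again stood alone, and 8 of 9 AL mice had at most 17.3 CPM. The log2FC was 0.38 (SE 0.17, unadjusted p = 0.041, FDR = 0.112, edgeR) against Ctrl and 0.40 (SE 0.21, FDR = 0.172) against LS mice. In the first run, which lacks AL9, it was 0.27 (FDR = 0.13, edgeR) and 0.37 (FDR = 0.0381), under the fold threshold.

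Notch3 (ENSMUSG00000038146, chromosome 17, 32120820 to 32166852, minus strand) was 12.8, 19.4 and 42.9 CPM in AL mice, 28.8, 19.8, 22.5 and 25.9 CPM in LS1 to LS4, and 19.8, 25.5 and 41.2 CPM in Ctrl mice. AL9 was highest and 6 of 9 AL mice were below every Ctrl mouse. Ctrl5 to Ctrl7 of the second run had 38.4, 41.2 and 28.97 CPM, above the 19.8 to 25.5 CPM of the Ctrl mice of the first run. With the run in the model the log2FC was -0.28 (SE 0.14, FDR = 0.159, edgeR) against Ctrl and -0.35 (SE 0.17, FDR = 0.141) against LS mice. Without AL9 it was -0.42 against Ctrl mice (FDR = 0.0334, edgeR), which passes the FDR but not the fold threshold.

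AL9 also had the highest sums of fibroblast and mesothelial genes. Its summed level of 10 fibroblast genes was 5048 CPM, against 716 to 3216 CPM in the other AL mice, 2240 to 2407 CPM in LS and 1302 to 2515 CPM in Ctrl mice. Genes of activated fibroblasts summed to 1096 CPM in AL9 and to at most 268 CPM in the other AL mice, and 5 mesothelial genes to 241 CPM in AL9 and at most 64.0 CPM in the others. AL8 had the lowest fibroblast sum and the lowest Kcnj8, Rgs5 and Tagln of all mice. The part of these cell types in the levels of the 10 genes was not tested.

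Of 17 further pericyte genes, 1 was called in AL against Ctrl mice and 1 against LS mice. Cd248, endosialin of pericytes and fibroblasts, was higher than in Ctrl mice (log2FC 0.85, SE 0.25, FDR = 0.0159, edgeR), at 7.59 to 28.7 CPM in AL and 5.47 to 12.6 CPM in Ctrl mice. Gja4, a connexin of arterial endothelium and mural cells, was higher than in LS mice (log2FC 0.61, SE 0.16, FDR = 0.0107, edgeR). Some of the 17 genes passed the FDR against Ctrl mice but not the fold threshold. Tbx18 (log2FC 0.50, FDR = 0.00306, edgeR), Gja4 (0.52, FDR = 0.00994), Mcam (0.41, FDR = 0.0199) and Ndufa4l2 (0.42, FDR = 0.0449) were higher. Vtn was lower (-0.40, FDR = 0.0458, edgeR). The median log2FC of the 17 genes was 0.19 against Ctrl and 0.22 against LS mice, and their summed level was 150 to 262 CPM in AL, 190 to 232 CPM in LS and 174 to 219 CPM in Ctrl mice, with AL8 lowest.

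The ligands and partners of these receptors were not called either, in 0 of 5 further PDGF genes and 0 of 13 Notch pathway genes in each of the 3 comparisons. Pdgfb, the ligand of Pdgfrb, had the smallest FDR of the PDGF genes, with a log2FC of 0.56 against Ctrl mice (SE 0.11, FDR = 0.00178, edgeR), just under the fold threshold, and of 0.38 (FDR = 0.0442) against LS mice. Of 10 endothelial genes 0 were called against Ctrl mice, and Egfl7 was called higher than in LS mice (log2FC 0.80, FDR = 0.000683, edgeR). Against Ctrl mice Egfl7 had a log2FC of 0.53 (FDR = 0.00259, edgeR), under the fold threshold.

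Per kilobase of exon, Rgs5 was the most abundant of the 10 genes in Ctrl hearts, at 128 ± 31.3 CPM per kb (SD, n = 7). Abcc9 followed at 59.2 ± 5.48 and Acta2 at 19.9 ± 11.8 CPM per kb. Kcnj8, Pdgfrb and Tagln came next at 8.94 ± 0.59, 8.21 ± 1.21 and 5.86 ± 1.72 CPM per kb, and neighbours in this order, as well as Acta2 and Kcnj8, overlapped in their ranges of 1 SD. Notch3, Myh11, Cspg4 and Cnn1 were lowest at 3.57 ± 0.987, 3.01 ± 0.481, 1.16 ± 0.209 and 0.307 ± 0.168 CPM per kb, where Notch3 overlapped in this way with Myh11 and with Tagln. The order of Tagln and Notch3 was not the same in both runs, with Tagln above Notch3 in the first (6.99 ± 1.30 and 2.89 ± 0.31 CPM per kb, SD, n = 4) and the 2 within their spread in the second (4.34 ± 0.514 and 4.47 ± 0.793, n = 3). In LS hearts (n = 4) Rgs5, Abcc9 and Acta2 were again highest, at 167 ± 17.2, 57.0 ± 4.07 and 38.2 ± 13.3 CPM per kb. In AL hearts (n = 9) Acta2 at 39.4 ± 16.7 and Abcc9 at 33.8 ± 8.51 CPM per kb were no longer apart by their spread.

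The contractile genes varied together from mouse to mouse in 5 of their 6 pairs over 20 mice. Pearson r and Spearman rho of log2 CPM were computed for all 45 pairs of the 10 genes over 20 mice after the group and run means were removed, with two-sided permutation p adjusted over the 45 pairs. The pairs share the same libraries, and 20 of 45 passed an adjusted p of 0.05 by Pearson r. The share among pairs of all tested genes was not counted. Of the contractile pairs, Acta2 with Cnn1 did not pass (r = 0.36, permutation p = 0.116, adjusted p = 0.173). Myh11 and Tagln were closest, at r = 0.90 (permutation p = 1e-05, the smallest that the permutations can give, adjusted p = 0.000225) and rho = 0.90 (permutation p = 1e-05), and r was 0.81 without AL9 and AL1, the mice farthest from the median of Myh11. Tagln and Cnn1 had r = 0.84 (permutation p = 1e-05, adjusted p = 0.000225) and rho = 0.76 (permutation p = 0.00021), with r = 0.66 without AL8 and AL9. Acta2 and Tagln had r = 0.63 (permutation p = 0.00249, adjusted p = 0.012) and rho = 0.76 (permutation p = 0.00015), with r = 0.61 without Ctrl4 and AL3.

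In the first run alone (15 mice) 8 of 45 pairs passed, and these included all 6 pairs of the 4 contractile genes, with r of 0.66 to 0.88. The other 2 were Pdgfrb with Kcnj8 (r = 0.77, rho = 0.70, permutation p = 0.00086, adjusted p = 0.00967) and Pdgfrb with Notch3 (r = 0.73, rho = 0.71, permutation p = 0.00153, adjusted p = 0.0127). Over 20 mice these 2 pairs had r = 0.67 and 0.81, and 0.62 and 0.64 without AL9 and AL8. Between a pericyte and a contractile gene 10 of 24 pairs passed over 20 mice and 0 of 24 in the first run. Without the 2 mice farthest from the median of the first gene of each pair, 6 of 45 passed.

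Kcnj8 and Abcc9 did not vary together (r = -0.01, permutation p = 0.981, adjusted p = 0.981, rho = -0.03 over 20 mice, and r = -0.01 in the first run). Abcc9 had r below 0 with all 9 other genes over 20 mice, though near 0 with Kcnj8 and Rgs5 (-0.01 each). In the first run r was above 0 with Notch3 (0.27) and Cspg4 (0.02) and below 0 with the others. The lowest over 20 mice was with Tagln (r = -0.54, permutation p = 0.0137, adjusted p = 0.0343, rho = -0.45), which was -0.18 without AL1 and AL9 and so rests on those mice.

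**Figure D4:**
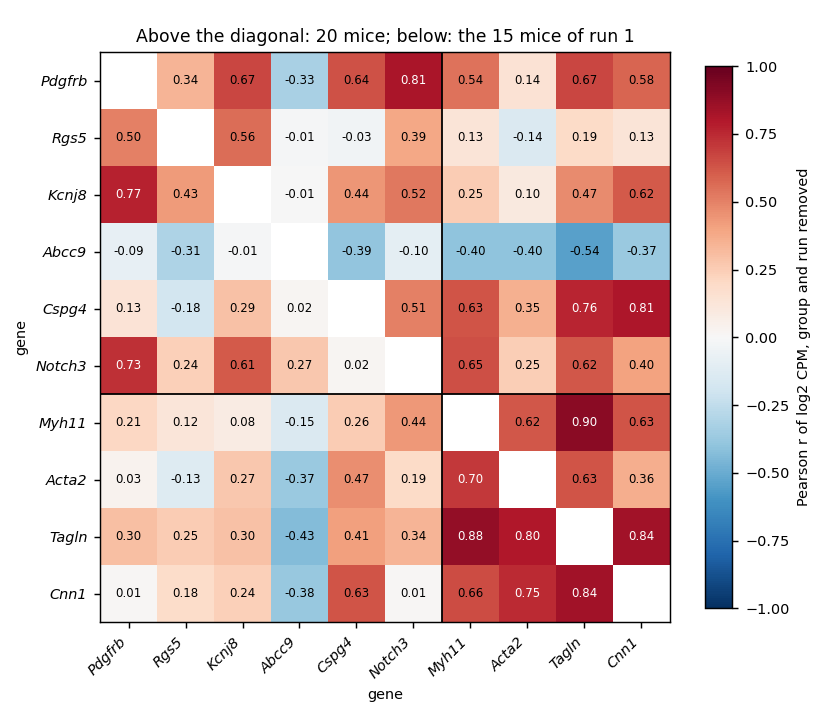
Each cell gives the Pearson r between the log2 CPM of 2 genes after group and run means were removed, above the diagonal over 20 mice and below it over the 15 mice of the first run, with red for positive and blue for negative values. The block of Myh11, Acta2, Tagln and Cnn1 at the lower right is red on both sides, and the row and column of Abcc9 are mostly blue or pale.

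Outside the 10 genes, the mean r with Myh11, Acta2, Tagln and Cnn1 over 20 mice was highest for Lrrc25 (0.75), Plscr3 (0.74), Anks6 (0.74), Lmod1 (0.73) and Adgra2 (0.73). In the first run these means were 0.68, 0.69, 0.73, 0.75 and 0.73. The 6 pericyte genes had looser companions, with the highest mean r for Acer3 (0.55), Tnks1bp1 (0.55), Tcf21 (0.54), Dusp4 (0.52) and Myo1d (0.52), and of 0.35 to 0.48 in the first run. These are descriptions, since the genes were taken as the highest of all tested genes.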

How the data were processed

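The authors extracted RNA from the heart apex, prepared stranded polyadenylated RNA libraries, sequenced them in 2 runs, and used STAR on GRCm38 and then Salmon for quantification, with the strand set. They deposited estimated counts (expected counts) of 25308 genes for 20 mice, not normalized, of which 14.2% were not whole and all were rounded here. Total counts were 7867642 to 62668146. The labels gave group, number and run (their batch). Genes were filtered by filterByExpr (minimum count 10, 14477 kept) and tested with edgeR 4.0.16 (TMM, glmQLFit and glmQLFTest, group and run as terms, R 4.3.3, two-sided). SE came from the F statistic. Replicates are separate mice. Correlations used log2 CPM with a prior count of 2 and 100000 permutations. Positions and exon lengths are from GENCODE M21, promoters from RefSeq. The count test and the correlations were tried on simulated data. The simulated counts had no run effect and the same spread for all genes, so that they do not cover these features of the data. The genes, lists and tests were chosen with earlier results of these data known. Named genes are the 10, called list genes (at most 5 of a list, and not of every list) and the 5 most alike of each kind. Pdgfb, Kcnj11, Abcc8, Myh6, Pln, Actc1, Mb, Tbx18, Mcam, Ndufa4l2 and Vtn were not called and were picked after their values were seen. Lists, among them endothelial, fibroblast, macrophage, atrial, adipocyte, Schwann, liver and mesothelial genes, serve as markers. Alternatives were DESeq2 1.42.0, RLE factors, no filter, a minimum of 10 counts in every mouse, ComBat-seq (sva 3.50.0), each run alone, no run term, a replicate block, Xist as a covariate, only the groups compared and each mouse left out. Leaving out the 5 mice with high Alb and splitting by Xist were added after seeing the data.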

Additional observations from a re-analysis of the deposited data

Results flagged for a closer look

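In 5 of 30 sets of values (10 genes in 3 groups) 1 mouse lay farther from the rest of its group than the 95% limit of Dixon's test, where chance gives about 1 in 20 sets. In 3 of them the mouse was AL9, of the second run. AL9 had 76.0 CPM of Pdgfrb, against at most 49.4 in the other AL mice. It had 37.6 CPM of Cspg4, against at most 17.3, and 42.9 CPM of Notch3, against at most 23.7. Without AL9 their log2FC in AL against Ctrl mice was 0.03 for Pdgfrb, 0.14 for Cspg4 and -0.42 for Notch3, and none was called. LS4 had 874 CPM of Rgs5, with LS1 next at 731. Ctrl4 had the lowest Myh11 of its group, 15.6 CPM, with Ctrl5 next at 22.0.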

How the results depend on the processing

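Of the 2 genes called in AL against Ctrl mice, 1 was called in the first run alone and without the 5 mice with high Alb, 0 in the second run alone and 0 in the 8 mice with high Xist, where Abcc9 had a log2FC of -0.41 (edgeR FDR = 0.102). The 1 gene called in AL against LS mice fell to 0 without the mice with high Alb and in the mice with high Xist (Abcc9 -0.49, edgeR FDR = 0.0793). Leaving out 1 mouse at a time left 1 to 2 calls against Ctrl mice (1 without AL9), with Abcc9 between -0.90 and -0.73 and Acta2 between 0.71 and 1.01. It left 0 to 1 genes that differed between the runs (Cspg4 without AL8, edgeR FDR = 0.0183). Of 45 pairs, 20 correlated in all mice, 8 in the first run, 6 without the 2 farthest mice, and 15 without AL9. Group and run had been fitted before residuals were permuted, which makes these p somewhat small.

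The labels did not say whether mice with the same replicate number shared a litter or day. Of 15 same-numbered pairs 4 had a correlation over 0.1 (range -0.23 to 0.29, so that some pairs went opposite ways). Pairs of unlike number were not counted, and AL5 to AL7 were of another run than Ctrl5 to Ctrl7. With the number as a replicate block the same 2 and 1 genes were called, Abcc9 at -0.68 and Acta2 at 0.86 against Ctrl mice, and Rgs5 turned to 0.20 against Ctrl and 0.050 against LS mice. Signs also turned, with no call, in genes near 0. Rgs5 in AL against Ctrl mice was 0.077 with ComBat-seq, 0.22 without the run term, 0.19 in the first run, 0.16 in mice with high Xist and -0.076 to 0.075 with 1 mouse left out. Rgs5 against LS mice was 0.049 in the first run, 0.084 with high Xist and -0.087 to 0.033 with 1 mouse left out. Tagln against LS mice was -0.053 with ComBat-seq, -0.092 without the run term, -0.014 in the first run, -0.15 with high Xist and -0.13 to 0.15 with 1 mouse left out. Cnn1 against LS mice was -0.033 without the run term, -0.33 with high Xist and -0.078 to 0.44 with 1 mouse left out. In the second run Kcnj8 was -0.23 and Myh11 0.18 against Ctrl mice. With high Xist, Tagln was -0.013 and Cnn1 -0.097 against Ctrl mice, and Abcc9 was 0.083 in LS against Ctrl mice. With low Xist, Myh11 was 0.20 against Ctrl mice and Acta2 -0.021 against LS mice. The cause was not tested. Over all genes the calls against Ctrl mice fell from 1130 to 587 with at least 10 counts in every mouse, 502 without the mice with high Alb, 684 with low Xist, 87 with high Xist and 16 in the second run, and against LS mice from 1288 to 650 (ComBat-seq), 473, 316 and 98 without high Alb, with low and with high Xist. Those between LS and Ctrl mice went from 3 to 19 (DESeq2), 6 (ComBat-seq) and 9 (low Xist). The depth of the second run limits Cnn1, which could not be tested there.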
